A study of Homo sapiens with 17 samples.

Results

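Membrane transporters and ion channels were followed in the human prostate cancer cell line PC3 after knockdown of MED25 or ETV4. MED25 is a subunit of the Mediator complex, which links transcription factors to RNA polymerase II, and ETV4 is an ETS-family transcription factor. The genes were chosen by the start of their symbol alone: SLC, ABC with a letter from A to G and a digit, KCN, CLCN, SCN with a digit, CACN, TRPM, TRPV, TRPC, AQP, ATP1, ATP2 and ATP6V. The amino acid carriers SLC7A5, SLC7A11, SLC1A5 and SLC38A1 were left out. This gave 39 genes among the 1400 that appear in at least 1 of 4 tables deposited by the authors, 1 table for each short hairpin RNA (shRNA). All 39 are protein coding in GENCODE release 29, and none is an antisense, pseudogene or regulator gene that only shares the start of its symbol.

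Early passage PC3 cells received a lentivirus with 1 of 2 shRNAs against MED25, here MED25-A and MED25-B (3 libraries each), or a luciferase shRNA (3 libraries), or a retrovirus with 1 of 2 shRNAs against ETV4, here ETV4-A and ETV4-B (3 libraries each), or a control shRNA (2 libraries). Cells were taken 7 days after infection, and the series design text calls the controls an empty vector. The 17 libraries thus share 1 cell line, and each pair of shRNAs shares its control libraries. In the authors' deposited tables the targeted transcript was at 51.6% of control with MED25-A, 30.5% with MED25-B, 26.1% with ETV4-A and 15.8% with ETV4-B. Each table gives 1 log2 ratio per gene and a score, and no value per library. The spread between replicates therefore cannot be seen, and no difference between shRNAs could be tested. Depth per library is unknown. The tables list only genes lowered at least 1.5-fold, and no listed score was below 20. A gene missing from a table may thus have changed by less, have scored lower at any size of decrease, have risen or not have been detected. None of 15 markers of luminal prostate, neuroendocrine cells or fibroblasts was listed, which says nothing of their level.

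Solute carriers (SLC) move nutrients, metabolites and ions across membranes along or coupled to gradients, while ABC transporters and P-type pumps spend ATP. Ion channels open a pore for potassium, sodium, calcium or chloride and set membrane voltage, cell volume and, in organelles, pH. Amino acid and sterol transport are known to respond to transcription factors that sense starvation or lipid load, and cancer cells depend on both.

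With MED25-A, 22 of the 39 genes were listed (56.4%), beside 56.1% of all 1400 genes. MED25-B listed 5 (12.8%), beside 26.7% of all genes. ETV4-A listed 19 (48.7%), beside 35.4%, and ETV4-B listed 4 (10.3%), beside 7%. None of these differences was tested. That for ETV4-B rests on 4 of 98 listed genes and was not stable: 2 of 61 genes with a score of at least 50, and 0 of 20 lowered at least 2-fold, were transporter or channel genes. Of the 662 coding genes of GENCODE 29 with such symbols, 5.89% were listed for any shRNA, beside 6.14% of all 19951 coding genes, which is a share near the background. Many of these genes may not be expressed in PC3 cells. By family, 21 of 382 SLC genes, 7 of 45 ABC genes, 4 of 97 KCN genes, 4 of 9 CLCN genes, 1 of 14 SCN genes and 1 of 22 TRP genes were listed. None of 26 CACN, 13 AQP, 10 ATP2 and 24 ATP6V genes was listed.

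The median decrease was larger than that of the whole table for 3 of the 4 shRNAs, a difference that was not tested. With MED25-A the median log2 ratio, knockdown over control, was −1.11 over the 22 genes and −0.78 over all 786 in the authors' deposited table. At least 2-fold decreases made up 13 of the 22 (59.1%), beside 24% of all genes listed. ETV4-A gave a median of −0.89 over 19 genes, against −0.79 over 495 in the authors' deposited table, and 7 of 19 (36.8%) were lowered at least 2-fold, beside 23.2%. For MED25-B the medians were −0.86 over 5 genes and −0.77 over 374 in the authors' deposited table, and 2 of 5 were lowered at least 2-fold, beside 20.1%. ETV4-B gave −0.74 over 4 genes and −0.77 over 98 in the authors' deposited table, with 0 of 4 lowered at least 2-fold, beside 20.4%. Over all shRNAs, 17 of 39 genes (43.6%) reached a 2-fold decrease in at least 1 table, beside 23.9% of the 1400.

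**Figure D1:**
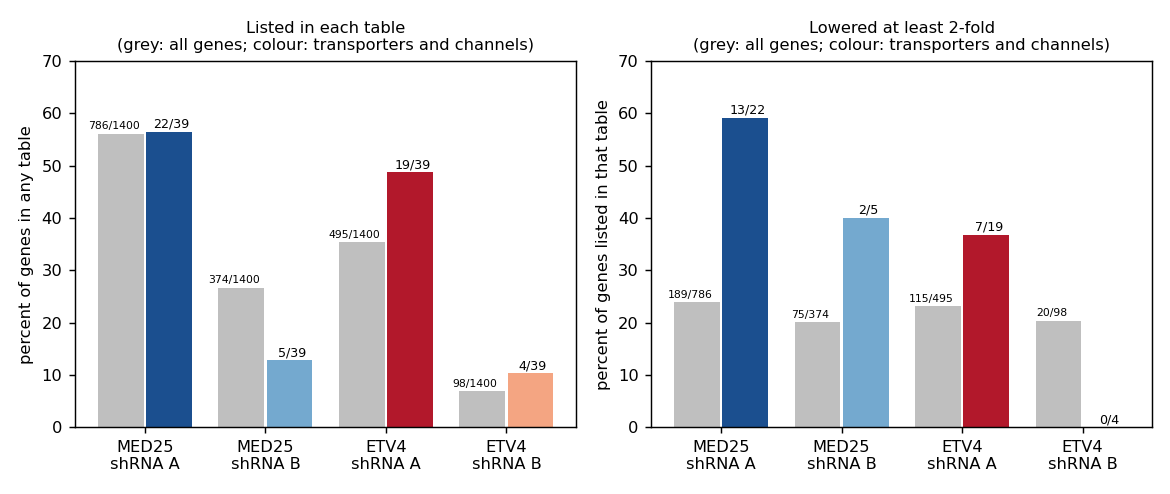
Left, percent of the 1400 listed genes (grey) and of the 39 transporter and channel genes (colour) that appear in each table. Right, percent of the genes of each table lowered at least 2-fold, with the counts above the bars; 13 of 22 transporter and channel genes reached 2-fold with MED25-A, against 189 of 786 genes.

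Most of the genes were listed once: 31 of 39 (79.5%) were in 1 table, 6 in 2, 1 in 3 and 1 in all 4, beside 78.9% of the 1400 in 1 table. For at least 1 shRNA of both targets, 6 genes were listed (15.4%), beside 10.2% of all genes. They are KCNK15, ABCA8, ABCA10, ABCG1, SLC4A10 and SLC7A1, and all 6 were in the tables of both MED25-A and ETV4-A, which have no control library in common. These 6 are 27.3% of the 22 genes listed with MED25-A and 31.6% of the 19 listed with ETV4-A. Over all genes, 786 were listed with MED25-A and 495 with ETV4-A. Of these, 77 were in this pair of tables alone, 15 also with MED25-B, 10 also with ETV4-B and 10 in all 4. No difference between these shares was tested. In the tables of MED25-A and ETV4-A and no other were 4 of the 39 genes (10.3%), beside 5.5% of the 1400, a difference that was not tested. Only KCNK15 was in all 4 tables, 1 gene of 39 (2.56%), beside 0.714% of all genes.

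**Figure D2:**
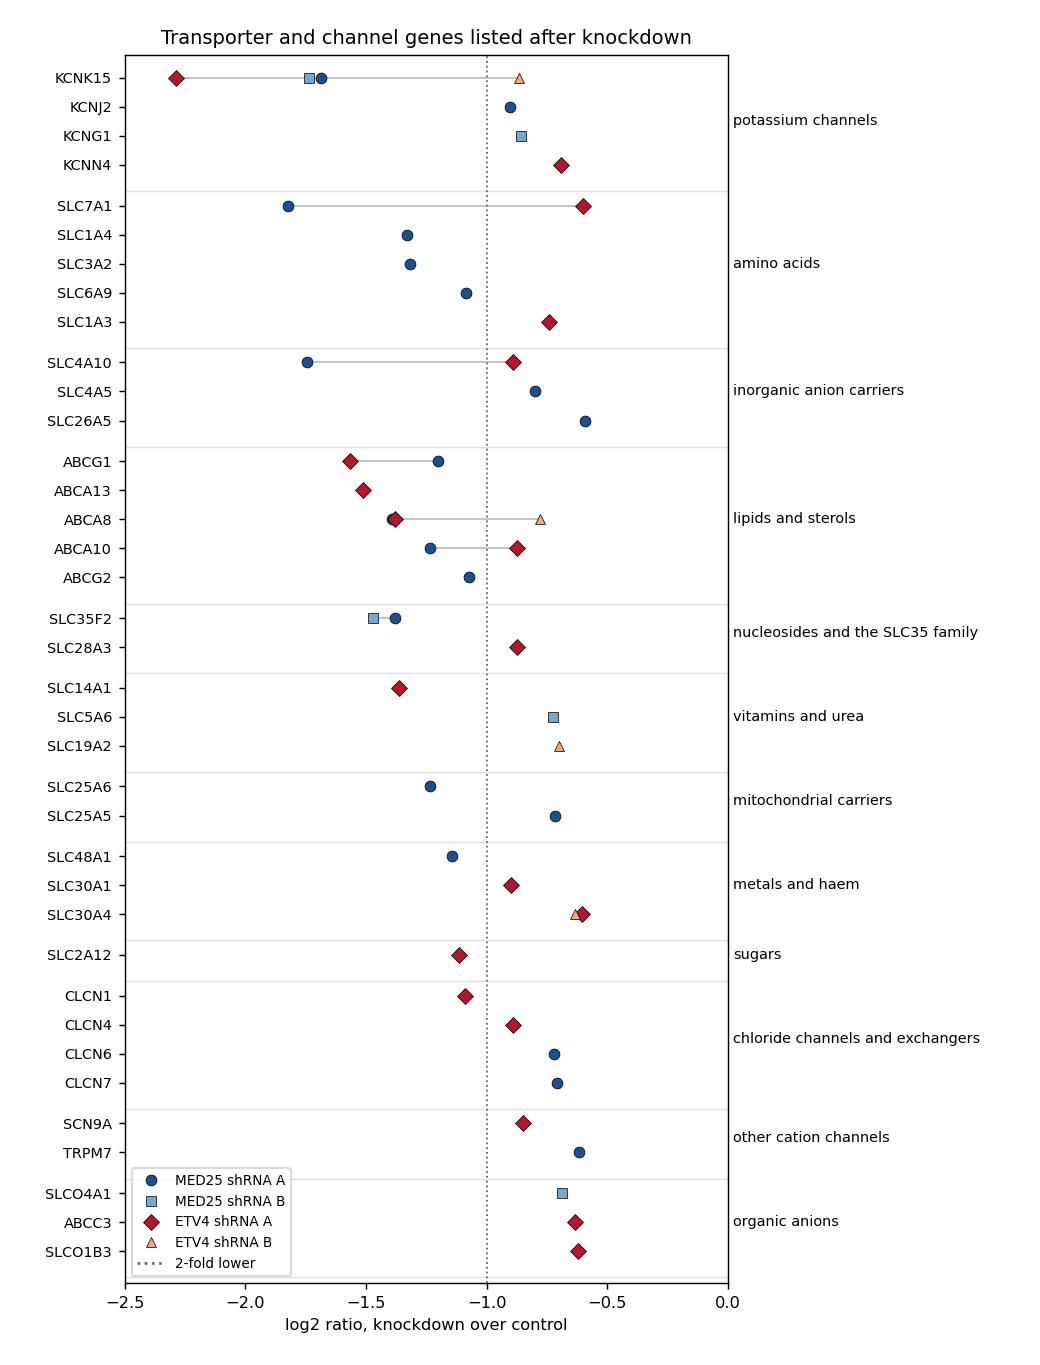
Log2 ratio of knockdown over control for 37 of the 39 genes, grouped by what they carry; the marker shows the shRNA, a line joins the values of 1 gene, and the dotted line marks a 2-fold decrease. KCNK15 has 4 values, from −2.29 to −0.86, and most genes have a single one.

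Of the 5 amino acid carriers, 4 were listed with MED25-A, beside 56.1% of all 1400 genes, and all 4 were at least 2-fold lower, beside 24% of the genes listed. None was listed with a B shRNA, where 26.7% (MED25-B) and 7% (ETV4-B) of all genes were. SLC7A1 (ENSG00000139514, chromosome 13), the main uptake route for arginine and lysine in many cells, was at −1.83 with MED25-A, or 28.2% of control, number 7 of 786 by size of decrease in the authors' deposited table. With ETV4-A the same gene was at −0.60, near the smallest decrease that the authors' deposited table lists. SLC1A4 (ASCT1), a carrier of small neutral amino acids such as serine and alanine, was at −1.33 with MED25-A in the authors' deposited table. SLC3A2, the heavy chain that brings SLC7A5 and SLC7A11 to the cell surface, was at −1.32 in the authors' deposited table for that shRNA. Its partners, left out here by the rule, were at −1.77 and −1.58 in the same one of the authors' deposited tables. Heavy and light chains were thus both lower with MED25-A. SLC7A11 was also at −1.23 with ETV4-A and −0.62 with ETV4-B in the authors' deposited tables, neither of which listed SLC3A2. SLC6A9, the glycine carrier GlyT1, was at −1.08 with MED25-A, and the glutamate carrier SLC1A3 was at −0.74 with ETV4-A alone, in the authors' deposited tables.

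Promoter sequences were at hand in RefSeq (GRCh38.p14, 250 bases before to 50 after each start site) for 29 of the 39 genes. ABCA8, ABCC3, ABCG1, KCNG1, KCNK15, SLC26A5, SLC28A3 and SLCO4A1 were among those not matched. Each window was searched on both strands for TGATGNAA, the element bound by ATF4 with C/EBP proteins through which amino acid shortage raises transcription. It was found in 6 of 29 genes (20.7%), beside 4.46% of 27195 genes in the same table, and in 4 of the 5 amino acid carriers. The 6 sites are shown because most of the listed amino acid carriers hold one; capitals mark the match, up to 11 bases stand on each side, and positions count from 1 at the start site, with −1 just before it.
SLC7A1 (chr13:29595663-29595692, minus strand, bases 8 to 15): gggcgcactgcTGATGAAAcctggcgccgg
SLC1A4 (chr2:64989381-64989410, plus strand, bases −7 to 1): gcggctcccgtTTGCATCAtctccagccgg
SLC3A2 (chr11:62881725-62881748, plus strand, bases 38 to 45): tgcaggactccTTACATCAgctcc
SLC1A3 (chr5:36596357-36596386, plus strand, bases −220 to −213): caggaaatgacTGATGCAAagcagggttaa
ABCG2 (chr4:88231608-88231637, minus strand, bases 1 to 8): gagaccctcagTTACATCAgggttaaaaaa
ABCA13 (chr7:48171354-48171383, plus strand, bases −93 to −86): agtaatctctcTTGCATCActcacttttgt
SLC7A1 and SLC1A3 carry the element as written, and the other sites read as its reverse complement TTNCATCA. SLC1A4, SLC3A2, SLC7A1 and also ABCG2 have it within 45 bases of a start site, and SLC6A9 had no match in its window. A match is a run of letters, and binding was not measured.

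The ETS core CCGGAA, searched in the same windows, was found in 5 of the 29 genes (17.2%), beside 20.1% of all genes, a share near the background. CLCN6, ABCG2, SLC35F2, SLC48A1 and SLC7A1 held it, and of these only SLC7A1 was listed with an ETV4 shRNA. The sites of SLC7A1 and of SLC35F2, the gene with the highest score in both MED25 tables, are given with the match in capitals.
SLC7A1 (chr13:29595650-29595677, minus strand, bases 23 to 28): gaaacctggcgCCGGAAcccgccagccc
SLC35F2 (chr11:107858806-107858833, minus strand, bases −35 to −30): cgcctcccgtcTTCCGGgacccggcact
An AP-1 site, TGACTCA, was found in SLC1A3, SLC2A12 and SLC3A2, or 3 of 29 genes (10.3%), beside 6.01% of all genes. No 2 matches to these motifs overlapped.

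Of the 5 lipid and sterol transporters, all of the ABC superfamily, 4 were listed with MED25-A and 4 with ETV4-A, beside 56.1% and 35.4% of all genes. Each of the 5 reached a 2-fold decrease in at least 1 table, beside 23.9% of the 1400 genes. ABCG1 (ENSG00000160179, chromosome 21), which exports cholesterol to high-density lipoprotein, was at −1.20 with MED25-A and −1.57 with ETV4-A in the authors' deposited tables. ABCA8, a transporter linked to cholesterol efflux (ENSG00000141338, chromosome 17), was at −1.39 with MED25-A, −1.38 with ETV4-A and −0.78 with ETV4-B in the authors' deposited tables. It was the sole gene of the 39 in exactly 3 tables, and its score with ETV4-B was number 94 of 98. ABCA10, a less studied relative, was at −1.23 and −0.87 with the A shRNAs of MED25 and ETV4 in the authors' deposited tables. ABCA8 and ABCA10 lie in 1 cluster of related genes on chromosome 17, on the same strand with 2 coding genes between them, neither of which was listed. ABCA13, a very large member of the subfamily, was listed with ETV4-A alone, at −1.51, number 24 of 495 in the authors' deposited table. ABCG2, placed here by family although it is best known for exporting drugs and urate, was at −1.07 with MED25-A, with a score that was number 748 of 786 in the authors' deposited table.

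Among potassium channels, KCNK15 was among the 15 largest decreases for 3 of the 4 shRNAs. KCNJ2, KCNN4 and KCNG1 were each listed once, as were 78.9% of the 1400 genes. KCNK15 (TASK-5, ENSG00000124249, chromosome 20) belongs to the background potassium channels with paired pore domains, and has given no current of its own when expressed in other cells. In the authors' deposited tables KCNK15 was at −1.69 with MED25-A and −1.74 with MED25-B, values that lie close together. Both values rest on the same lentiviral control libraries, so they are not independent. With ETV4-A, KCNK15 was at −2.29, or 20.5% of control, number 2 of 495 by size in the authors' deposited table. ETV4-B left it at −0.86, or 54.9% of control, number 34 of 98 in the authors' deposited table, although the targeted transcript was lower with B than with A. ETV4-B also listed fewer genes in all, 98 against 495 with ETV4-A. The difference in KCNK15 between the pair of hairpins comes without a measure of spread and was not tested. KCNK15 overlaps the antisense gene KCNK15-AS1 and the coding gene RIMS4 on the opposite strand, neither of which was listed.

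KCNJ2, the inward rectifier Kir2.1 that holds the resting potential, was at −0.90 with MED25-A in the authors' deposited table. KCNG1, a silent subunit that modifies Kv2 channels, was at −0.86 with MED25-B, and KCNN4, the calcium-activated channel KCa3.1, at −0.69 with ETV4-A, in the authors' deposited tables. No potassium channel other than KCNK15 was listed for both shRNAs of a target, and 78.9% of the 1400 genes were in 1 table only.

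SLC35F2 was the other gene listed with both MED25 shRNAs. Of the 39 genes it alone (2.56%) was in these 2 tables and no other, beside 8.93% of the 1400. That share was lower than the background, and the difference was not tested. The gene (ENSG00000110660, chromosome 11) belongs to a family that includes nucleotide sugar carriers, and it imports the cytotoxic compound YM155. SLC35F2 was at −1.38, or 38.4% of control, with MED25-A and at −1.47, or 36.0%, with MED25-B in the authors' deposited tables. Ranked by decrease it was number 51 of 786 and number 18 of 374, but its score was number 1 in both of the authors' deposited tables. Neither ETV4 table listed it. Both values rest on the same lentiviral control libraries, so they are not independent.

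**Figure D3:**
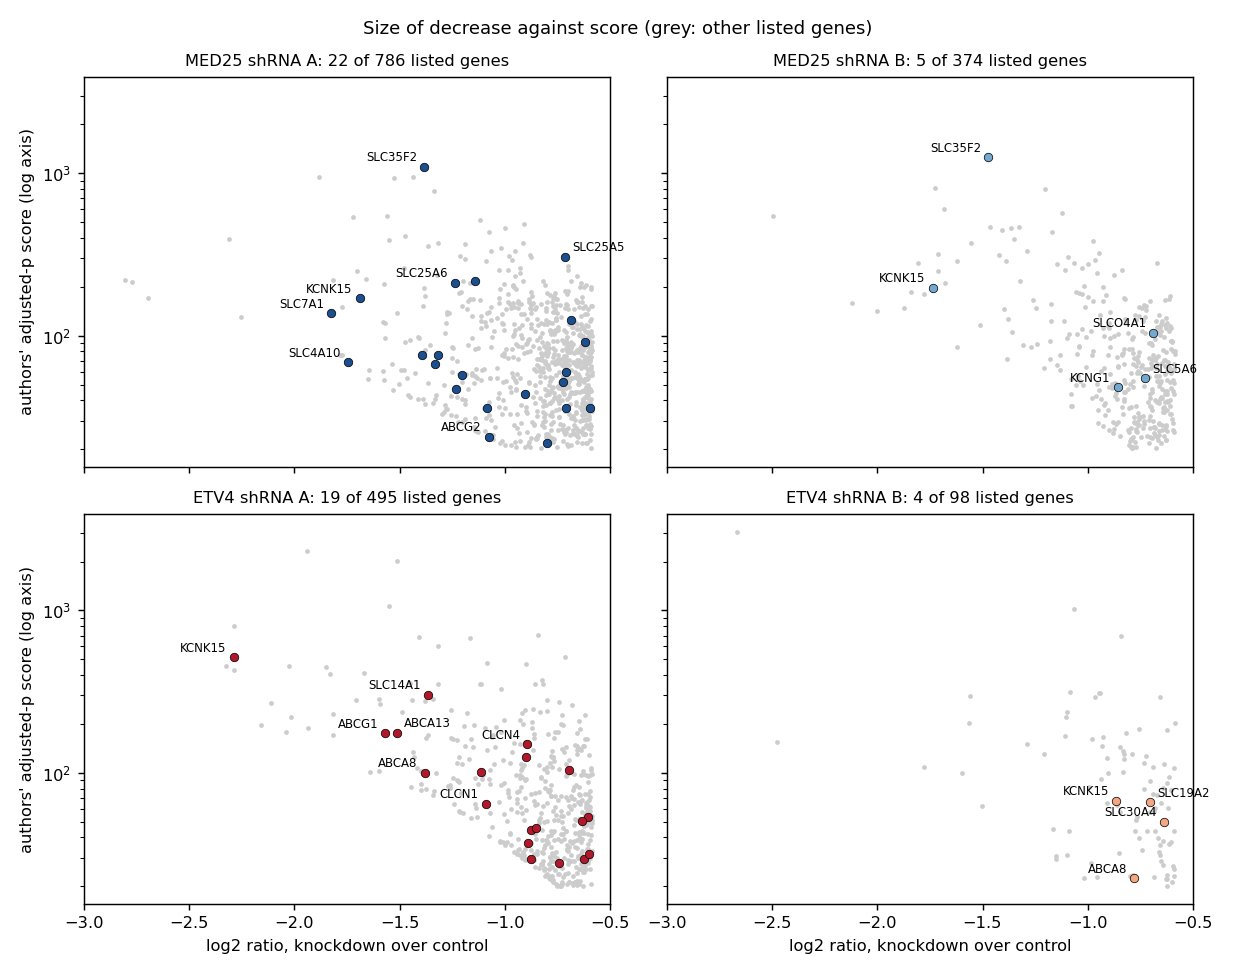
Authors' adjusted-p score (log axis) against log2 ratio for every listed gene (grey) and for transporter and channel genes (colour, some named), 1 panel per shRNA. SLC35F2 has the highest score in both MED25 panels, and KCNK15 is among the largest decreases in all panels but that of ETV4-B.

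The 3 inorganic anion carriers were listed with MED25-A, as were 56.1% of all genes, and each overlaps another listed gene, so their values are uncertain. SLC4A10, which brings bicarbonate into cells with sodium, was at −1.75, number 12 of 786, with MED25-A and at −0.89 with ETV4-A in the authors' deposited tables. It overlaps the processed pseudogene AHCTF1P1 on the opposite strand, which was at −0.86 with MED25-A. The bicarbonate carrier SLC4A5 was at −0.80 with MED25-A in the authors' deposited table, with a score that was number 770 of 786. It overlaps MTHFD2, a mitochondrial folate enzyme gene on the opposite strand, which was at −1.53 with the same shRNA. Without a stated use of strand, reads from any stretch they share cannot be told apart. SLC26A5, known as prestin, the motor protein of outer hair cells, was at −0.59 with MED25-A in the authors' deposited table. It overlaps the antisense gene AC005064.1, which was listed with ETV4-A alone, at −0.94.

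Of the adenine nucleotide carriers of the mitochondrial inner membrane, which exchange ADP for ATP, SLC25A6 and SLC25A5 were listed, with MED25-A alone. SLC25A6 (ANT3) was at −1.24 and SLC25A5 (ANT2) at −0.71 in the authors' deposited table, with scores that were number 52 and number 25 of 786. The genes are close relatives, and GENCODE 29 names 9 pseudogenes of SLC25A5 and 6 of SLC25A6, so reads may be shared among copies and these values are uncertain.

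Among metal and haem transporters, SLC48A1 was in a MED25 table and both zinc carriers were in ETV4 tables; only 10.2% of all genes were listed for both targets. SLC48A1 (HRG1), which moves haem out of lysosomes, was at −1.14 with MED25-A, number 47 of 786 by score, in the authors' deposited table. SLC30A1 (ZnT1), the zinc exporter of the plasma membrane, was at −0.90 with ETV4-A in the authors' deposited table. SLC30A4 (ZnT4), which loads zinc into vesicles, was listed with both ETV4 shRNAs, at −0.60 and −0.63 in the authors' deposited tables. Its decreases were small and alike in size. Both rest on the same 2 retroviral control libraries.

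Of the 4 chloride channels and exchangers, 2 were listed with MED25-A and 2 with ETV4-A, beside 56.1% and 35.4% of all genes. CLCN6 and CLCN7, exchangers of chloride for protons in late endosomes and lysosomes, were at −0.72 and −0.71 with MED25-A in the authors' deposited table. CLCN1, the chloride channel of skeletal muscle, was at −1.09 with ETV4-A, and the endosomal exchanger CLCN4 was at −0.89, in the authors' deposited table. Each CLCN gene was in 1 table, as were 78.9% of the 1400 genes.

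Among cation channels other than potassium channels, TRPM7, a magnesium-permeable channel fused to a kinase, was at −0.62 with MED25-A in the authors' deposited table. SCN9A, the voltage-gated sodium channel Nav1.7, was at −0.85 with ETV4-A, number 192 of 495 by size, in the authors' deposited table.

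The remaining carriers of urea, sugar, nucleosides, vitamins and organic anions were listed once each, as were 78.9% of the 1400 genes. Most of them were listed with ETV4-A, beside 35.4% of all genes, a difference that was not tested. SLC14A1, the urea channel UT-B, was at −1.36 with ETV4-A, number 27 of 495 by score, in the authors' deposited table. SLC2A12, the glucose carrier GLUT12, was at −1.11 and SLC28A3, a sodium-coupled nucleoside carrier, at −0.87 with the same shRNA in the authors' deposited table. ABCC3 (MRP3), an exporter of conjugated organic anions, was at −0.63 and the uptake carrier SLCO1B3, known for taking up steroid conjugates, at −0.62 with ETV4-A in the authors' deposited table. Of the genes listed with a B shRNA alone, SLCO4A1, an uptake carrier of thyroid hormone, was at −0.69 and SLC5A6, the carrier of biotin and pantothenate, at −0.73 with MED25-B in the authors' deposited table. SLC19A2, the thiamine carrier, was at −0.70 with ETV4-B in the authors' deposited table, where it was number 60 of 98 by size. Apart from SLC14A1 and SLC2A12, none of these genes was lowered 2-fold.

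Related genes with other symbols were looked for by a list of channels, carriers, pumps and their partners, of which 23 were listed for at least 1 shRNA. MED25-B listed 10 of these 23, beside 26.7% of all genes, MED25-A 7 (beside 56.1%), ETV4-A 8 (beside 35.4%) and ETV4-B 1 (beside 7%). Of the 10 with MED25-B, 7 were channels, among them GJA3, ANO9, ORAI1, HCN2, P2RX5 and ITPR3. GJA3, a gap junction protein, was alone past 2-fold, at −1.02 in the authors' deposited table. None of these 7 was in another table, nor were 195 of all 374 genes listed with MED25-B. No difference between the shRNAs was tested. LRRC8A, the essential subunit of the volume-regulated anion channel, was at −1.37 with MED25-A in the authors' deposited table. The ankyrin gene ANK2, whose product anchors ion pumps and exchangers in the membrane, was the one gene of the list in all 4 tables, from −1.84 to −1.34 in the authors' deposited tables.

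Counting without regard to strand could bear on some of these genes. In GENCODE 29, 25 of the 39 overlap another gene on the opposite strand by whole gene span. For 3 of them, SLC4A10, SLC4A5 and SLC26A5, the overlapping gene was itself listed. Overlap of exons was not looked at, and the same share over all genes was not computed. In bulk RNA, a lower level in every cell and loss of expression in part of the cells cannot be told apart. No label says whether libraries of a group came from separate cultures.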

How the data were processed

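The submitters' processing notes name Novoalign 3.08.02 and the build hg19. How reads were counted, scaled and tested, and whether strand was used, is not given in these sources. Per the file headers, the authors deposited a log2 ratio and an adjusted p for each gene. The adjusted p, as deposited by the authors on an unstated scale, was treated as a score and used only to rank and filter; its minimum lay just above 20, which would be an adjusted p of 0.01 on a minus 10 log10 scale. Which shRNA a table belongs to, A or B, was taken from the name it was deposited under. The library number that recurs in the headers of a target's tables was taken for the control, and MED25 ratios were turned round to knockdown over control; the sign of the targeted genes helped to set this reading and is no independent check. All listed genes are then lower.

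Of the 1400 genes, 1350 matched GENCODE 29 by Ensembl identifier. It is on another build, so only names, types, strands and neighbours were used, and promoter coordinates are those of RefSeq on GRCh38.p14. Genes were classed by family; SLC48A1 was classed by known role after it was seen. The members and lists were chosen with earlier results of these data known. Genes are named with their values, and a few results are not reported here. Alternatives were a log2 ratio of −1 or lower, a score of at least 50, other member sets and the mean. ITPRIP and TMCO4 matched the related list by letters alone and were left out. The symbol rule and motif search were tested on known cases. Python 3.11.15, pandas 2.3.3, numpy 2.4.6 and matplotlib 3.10.9 were used.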

Additional observations from a re-analysis of the deposited data

How the results depend on the processing

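No paired analysis was possible because the deposited tables hold no value per library, and no library could be left out for the same reason. Requiring a log2 ratio of −1 or lower left 13 and 2 genes with the MED25 shRNAs A and B, then 7 and 0 with the ETV4 shRNAs, with medians of −1.32, −1.60 and −1.38 for the first 3; no median exists for ETV4 B. It left 0 genes with both ETV4 shRNAs and 3 for both targets, since fewer genes qualify. A score of at least 50 left 12 genes with ETV4 A and 2 with ETV4 B, 1 with both ETV4 shRNAs and 3 for both targets, and gave medians of −1.24, −1.10, −1.10 and −0.78 in the same order. The mean in place of the median was −1.10, −1.10, −1.03 and −0.75. With the 4 left-out carriers the median was −1.16 for MED25 A and −0.70 for ETV4 B. Without the 5 members that overlap a listed gene or have near-identical copies, an alternative chosen after seeing the data, it was −1.14 for MED25 A and −0.88 for ETV4 A. The other values under these settings stayed within 1.5 times for counts and at the same 2 decimals for medians, and leaving out products that are not carriers, or the ATP10, ATP11 and ATP13 genes, removed no gene. No direction reversed, as the tables list decreases alone.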

Other observations

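Some of the 39 genes had a neighbour in the same table. For 6 of them (15.4%) the next coding gene on one side was listed for the same shRNA, beside 159 of 1224 listed coding genes, a share near the background. SLC14A1 lies next to SIGLEC15, which was at −1.44 with ETV4-A and −0.68 with ETV4-B in the authors' deposited tables. SLC4A10 lies next to DPP4, which was in the same pair of the authors' deposited tables, at −0.64 with MED25-A and −0.62 with ETV4-A. CLCN1 has 3 genes within 200 kb that were listed with ETV4-A, as it was: FAM131B at −0.81, EPHA1 at −0.73 and ZYX at −0.62 in the authors' deposited table. SLCO4A1 lies next to the neurotensin receptor gene NTSR1, which was at −1.55 with MED25-B in the authors' deposited table. These genes were named after their values were seen.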
